A study of Mus musculus with 12 samples.

Results

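The neurotrophins *Bdnf* (brain-derived neurotrophic factor) and *Ntf3* (neurotrophin-3) and the neurotrophin receptors *Ntrk2* (TrkB), *Ntrk3* (TrkC) and *Ngfr* (p75) were followed through the m6A peak lists of mouse hippocampus. Their peaks were taken by gene name, which gave these 5 genes of 17744 with a peak in either list. All 5 genes had at least 1 peak in each genotype. They held 27 of 33622 peaks in WT mice and 24 of 34935 peaks in *Tyrobp*-/- mice, which lay at 22 distinct exonic sites, 17 of them listed in both genotypes.

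The mice were C57BL/6, aged 6 months, either WT or *Tyrobp*-/-, a strain in which a small deletion in *Tyrobp* was made with TALENs and which was compared with WT littermates. *Tyrobp* encodes DAP12, the signalling adaptor of TREM2 on microglia. Hippocampal RNA was studied by MeRIP-seq, in which RNA fragments pulled down by an antibody against m6A (the IP library) are sequenced and set against fragments of that RNA taken before the pull-down (the input library). There were 3 samples of each genotype, each pooled from the hippocampi of 3 male mice, and 12 libraries in all.

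The authors called peaks on the 3 samples of a genotype together. Each peak therefore has 1 fold enrichment (IP over input) and 1 FDR per genotype, with no value for a single sample and no spread between replicates. No difference between the genotypes could be tested, and every ratio given here is a description of pooled libraries. The libraries held 61189368 to 73554506 valid reads, and the reads behind a single peak are unknown. In bulk tissue, fewer cells of a type and less marked RNA per cell cannot be told apart. Replicate 2 had a lower share of bases at Q30 in every group (92.2% to 92.4%, against 95.0% to 95.6%), and its weight in the pooled peaks was not tested. *Tyrobp* itself had 0 peaks in both lists, so the lists do not check the deletion. All 9 markers of hippocampal and excitatory neurons had a peak in each genotype. So did all 5 astrocyte, all 5 oligodendrocyte and all 3 endothelial markers, and 5 of 7 microglial markers. Of 5 interneuron markers 4 had a peak in WT and 2 in *Tyrobp*-/- mice, and of 5 hypothalamic markers 2 and 0. For choroid plexus the numbers were 1 and 0 of 3. Of all genes with a peak in either list, 79.9% had one in both. A listed peak does not measure the expression of a marker. The hypothalamic markers *Pmch* and *Hcrt* had no peak in either list, yet the study's RNA sequencing named both among its top genes upregulated in *Tyrobp*-/- mice. The part of these markers in the values below was not tested.

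Neurotrophins are secreted growth factors that keep neurons alive and tune synapses. BDNF acts mainly through TrkB and neurotrophin-3 mainly through TrkC, both receptor tyrosine kinases, while p75 binds all neurotrophins and, with sortilin, their uncleaved precursors. In the hippocampus BDNF and TrkB are known for their role in long-term potentiation and memory. m6A is an RNA mark that methyltransferases place mostly near stop codons and in 3′ UTRs, and that affects splicing, decay and translation of the transcript.

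*Bdnf* had the widest range of ratios between the genotypes among the 5 genes, with log2 ratios from -1.38 to 1.93. Its coding exon was enriched alike in WT and *Tyrobp*-/- mice, while the upstream exons, each with a promoter of its own, carried peaks whose extent and enrichment differed in both directions. *Bdnf* lies on the forward strand of chromosome 2, and the transcripts of its peaks span 109674700 to 109727007 (GRCm38). It had 7 peaks in the WT list and 8 in the *Tyrobp*-/- list. Of these 1 and 2 are listed among reverse-strand genes over exons listed already, which leaves 6 in each list. Of all genes, 3.55% in the WT list and 3.75% in the *Tyrobp*-/- list had 6 or more. The annotation placed all 15 of these peaks in the 5′ UTR, including the peak that lay mostly on the coding exon.

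The peak over the *Bdnf* coding exon was alike in height and in its place on that exon. In WT mice it ran from 109709641 to 109724288, with 907 of its 928 exonic bases in the last exon (109723382 to 109724288), and its fold enrichment was 15.4. In *Tyrobp*-/- mice 877 of its 1047 exonic bases lay in that exon, and the fold enrichment was 15.1. The block of this peak on an upstream exon differed in length, with 21 bases in WT and 170 in *Tyrobp*-/- mice. The log2 ratio of *Tyrobp*-/- over WT was -0.03. The log10 p of IP over input was -1440 in WT and -848 in *Tyrobp*-/- mice, by far the strongest evidence for a peak in this gene.

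Most peaks over the upstream *Bdnf* exons differed in height between the genotypes. At the first start site, a peak of 61 bases in WT mice had a fold enrichment of 14.6, and a peak of 121 bases in *Tyrobp*-/- mice one of 5.60, so that the *Tyrobp*-/- value was lower by a log2 ratio of -1.38. The WT peak there had a log10 FDR of only -4.26. The next peak downstream was of like height, with 6.64 in WT and 6.83 in *Tyrobp*-/- mice, but it covered 658 exonic bases in WT and 300 in *Tyrobp*-/- mice.

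Farther downstream, WT mice had the higher value at 1 peak and *Tyrobp*-/- mice at the next ones, as the plot of the *Bdnf* peaks by distance shows. The peak that starts near 1.45 kb had a fold enrichment of 12.5 in WT and 5.01 in *Tyrobp*-/- mice (log2 ratio -1.32). At 17.7 to 18.9 kb the WT peak had 5.23, and the *Tyrobp*-/- peak, which joined 47 bases at 2.48 kb to 193 bases at this exon, had 15.2 (log2 ratio 1.54). At the exon that ends near 19.9 kb the values were 8.79 in WT and 33.4 in *Tyrobp*-/- mice (log2 ratio 1.93), the highest fold enrichment of all member peaks and above 99% of the *Tyrobp*-/- list. Its log10 FDR was nearly the same in both genotypes, -51.1 in WT and -49.4 in *Tyrobp*-/- mice.

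**Figure D1:**
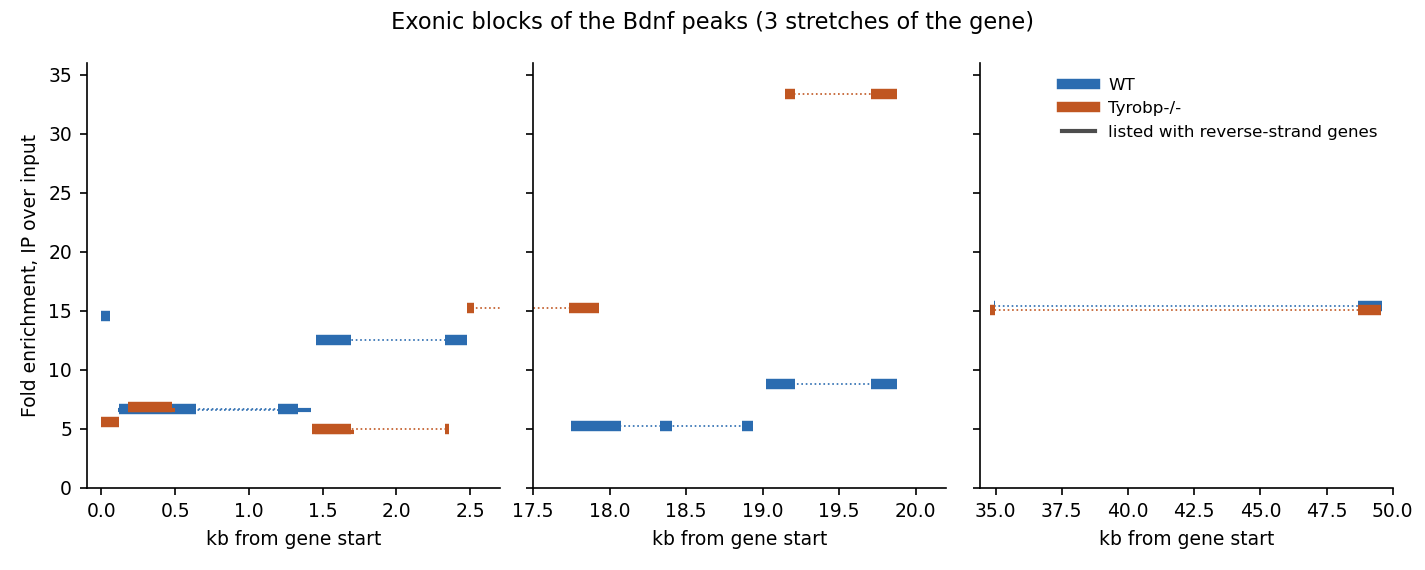
Fold enrichment (IP over input) of each *Bdnf* peak against distance from the gene start in kb, in 3 stretches of the gene. Thick bars are exonic blocks, dotted lines join the blocks of a peak, thin bars are peaks listed among reverse-strand genes, blue is WT and orange *Tyrobp*-/-. The 2 bars near 15 at the right, at 15.4 and 15.1, lie on the coding exon, while the upstream exons range from 4.69 to 33.4.

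The first transcribed bases of the *Bdnf* start sites are the parts of these peaks for which reference sequence was at hand. The RefSeq table of promoters (GRCm38.p6) holds 7 *Bdnf* start sites, and peaks covered bases among the first 50 at 5 of them in WT and at 4 in *Tyrobp*-/- mice. The 5 covered stretches are shown because peaks over these exons differed between the genotypes. The letters GGAC, a common core of the m6A motif, are in capitals. GGAC was searched on the transcribed strand, and its reverse complement GTCC was counted separately. At 109677032 the *Tyrobp*-/- peak covers 27 of the 30 bases shown.
chr2:109674700-109674729 (first start site, in a peak in both genotypes): taaagcagtagccggctggtgcagaaaagc
chr2:109677032-109677061 (in a peak in both genotypes): acctctccatcgccctcacgatcctcgatg
chr2:109692449-109692478 (from the start site at 109692436, in a peak in both genotypes): ttcaccgaggagaGGACtgctctcgctgcc
chr2:109693027-109693056 (in a peak in WT mice): aaaccataaccccgcacactctgtgtagtt
chr2:109694409-109694438 (in a peak in both genotypes, with 33.4-fold enrichment in *Tyrobp*-/- mice): cactgtcacctgctctctagggagtactac
Of the 7 *Bdnf* start sites, 3 had GGAC within the first 50 transcribed bases, and 1 of these 3 lay in a peak, the site at 109692436. Over all 32851 promoter windows 18.9% had GGAC in that stretch, and 17.4% had GTCC. A match in these letters is not a measured methylation site.

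Some *Bdnf* rows of the lists overlap each other. The lists have no strand column, but they run through the forward-strand genes of a chromosome and then its reverse-strand genes. The peak at 109674812 to 109676118 in WT mice stands among the reverse-strand genes (90% of its 20 neighbours), as do 2 *Bdnf* peaks in *Tyrobp*-/- mice. The WT one had a fold enrichment of 6.63 and its match in *Tyrobp*-/- mice (109674901 to 109675197) one of 6.59, close to the forward listing of the same exon. The further *Tyrobp*-/- one, at 109676147 to 109676414, had 4.69. The WT list also held a peak of *Gm45346*, a reverse-strand gene, at 109676177 to 109676591, with a fold enrichment of 12.3, which shared 219 bases with the *Bdnf* peak of 12.5. No peak of that name was in the *Tyrobp*-/- list, where the peak of 4.69 just named, listed as *Bdnf*, overlaps that stretch. The sources do not say whether strand was used in peak calling. From the lists alone, reads of *Bdnf* and of the opposite strand therefore cannot be told apart at these exons.

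*Ntf3*, on the reverse strand of chromosome 6, had the highest fold enrichment of the member genes in WT mice. Its main peak lay in the 3′ UTR, at 126101678 to 126102475 in WT and 126101678 to 126102416 in *Tyrobp*-/- mice. The fold enrichment was 21.6 in WT, above 96.7% of the WT list, and 20.1 in *Tyrobp*-/- mice, above 96% of that list, for a log2 ratio of -0.10. The peak kept its place and its height.

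The WT list had a further *Ntf3* peak in the 5′ UTR, at 126166792 to 126166910, with no counterpart in the *Tyrobp*-/- list. Its fold enrichment was 7.81 and its log10 FDR -0.79, the weakest evidence among all member peaks. A GGAC lies in this peak, shown here because the peak was listed in WT mice only:
chr6:126166887-126166916 (reverse strand): ctgtagagccccgGGACcaggagcttgaga
The peak covers 24 of these 30 bases. The RefSeq gene reaches only 126166772, so the peak lies outside it. The GGAC is at -157 bases from the RefSeq start site at 126166744. The transcript that annotates the peak reaches 126166910. Over all promoter windows 65.6% held a GGAC somewhere.

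*Ntf5* (neurotrophin-4), another ligand of TrkB, had peaks in both lists as well. It had a single peak of 23.4 in WT mice, and 2 shorter peaks of 12.4 and 10.5 on the same stretch in *Tyrobp*-/- mice. The log2 ratio of its matched pair was -0.92, past 1.5-fold, whereas the strongest pairs of *Bdnf* and *Ntf3* were not.

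*Ntrk2* encodes TrkB and spans 58806569 to 59133970 on the forward strand of chromosome 13 (327 kb). Its gene also makes short receptors without the kinase domain, through other 3′ exons. It had 8 peaks in WT and 6 in *Tyrobp*-/- mice, in 3 places: at the 5′ end, in 3′ UTRs well inside the gene, and near the gene's end. The largest ratio was that of an inner 3′ UTR.

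The strongest *Ntrk2* peak lay at 59126493 to 59129656 in WT and 59126463 to 59129776 in *Tyrobp*-/- mice, 320 kb from the gene start. Its fold enrichment was 14.3 in WT and 10.7 in *Tyrobp*-/- mice, with a log2 ratio of -0.42. The log10 p was -2230 in WT, the lowest of the member peaks, and -1390 in *Tyrobp*-/- mice. The 5′ peak at 58807829 to 58808845 had identical bounds in both genotypes, with 6.60 in WT and 5.92 in *Tyrobp*-/- mice (log2 ratio -0.16). Just upstream, a peak of 330 bases and 3.86 in WT faced one of 90 bases and 2.58 in *Tyrobp*-/- mice (log2 ratio -0.58).

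Inside the gene, at 80.8 to 81.4 kb, the WT list had 3 short *Ntrk2* peaks of 61, 121 and 181 bases. Their fold enrichments were 2.20, 2.36 and 2.44, with log10 FDRs of -1.23, -1.52 and -1.42. The *Tyrobp*-/- list had 1 peak of 780 exonic bases, 771 of them there and 9 at 72.2 kb. Its fold enrichment was 7.94 and its log10 FDR -8.48. The matched pair gave a log2 ratio of 1.70, although only 23.2% of their joint bases were shared. This 3′ UTR is also the single member row among the 5640 of the authors' table that compares the genotypes (58887273 to 58887962). The *Tyrobp*-/- peak covered 100% of that row and the WT peaks 52.6%. Of all genes with a peak, 26.1% have a row in that table, against 1 of the 5 genes here. A row there is not in itself a called difference, as the study reported far fewer peaks as significantly different.

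Other inner *Ntrk2* peaks were weak or listed once. At 126 kb the fold enrichment was 1.90 over 61 bases in WT and 2.62 over 421 bases in *Tyrobp*-/- mice (log2 ratio 0.46). A WT peak at 72 kb (58878561 to 58878651) had 9.77 but a log10 FDR of only -1.55, and had no overlapping *Tyrobp*-/- peak. The block of 9 bases of the *Tyrobp*-/- peak of 7.94 starts close by, at 58878741. A *Tyrobp*-/- peak 0.599 kb before the gene's end had 1.48, the lowest of the member peaks, and none in WT mice.

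*Ntrk3* encodes TrkC, the receptor of neurotrophin-3, and spans 78175959 to 78578408 on the reverse strand of chromosome 7 (402 kb). Like *Ntrk2* it makes kinase-deficient short forms. Among the genes with several matched pairs it had the narrowest range of ratios. It had 7 peaks in each list and 6 matched pairs, whose log2 ratios lay between -0.24 and 0.09.

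The strongest *Ntrk3* peak was in a 3′ UTR at 78190536 to 78192713 in WT mice, with 15.5, and at 78190506 to 78192564 in *Tyrobp*-/- mice, with 13.9. Both lists give it again at the end with nearly the same bounds, at 15.5 and 14. These 2 entries are 1 site. A further 3′ UTR peak lay 276 kb from the gene start and 126 kb before its end, at 78301533 to 78302163 in WT mice. It had 9.35 in WT and 7.89 in *Tyrobp*-/- mice (log2 ratio -0.24), and its neighbour at 274 kb had 3.96 and 3.60.

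Of the weaker *Ntrk3* peaks, the most distal one had 2.59 in WT and 2.76 in *Tyrobp*-/- mice, and the next 2.59 and 2.43. In the 5′ UTR the lists named different places. WT mice had a spliced peak of 301 bases with 2.56, and *Tyrobp*-/- mice a peak of 181 bases with 2.84, closer to the gene start at 0.136 kb. Both of these 5′ peaks had no overlap in the other list.

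*Ngfr* encodes p75 and spans 95568818 to 95587735 on the reverse strand of chromosome 11 (18.9 kb). All its peaks lay in the last part of the gene and were annotated as 3′ UTR, with 3 in WT and 2 in *Tyrobp*-/- mice. In WT mice the fold enrichments were 6.97, 4.39 and 8.69. In *Tyrobp*-/- mice 1 peak of 900 exonic bases (95570316 to 95571939) took the place of the latter 2, with 9.45, and a shorter peak of 540 bases had 10.7 where WT mice had 6.97 over 1109 bases. The matched pairs had log2 ratios of 0.12 and 0.62, and *Ngfr* was the only member with every matched pair higher in *Tyrobp*-/- mice.

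**Figure D2:**
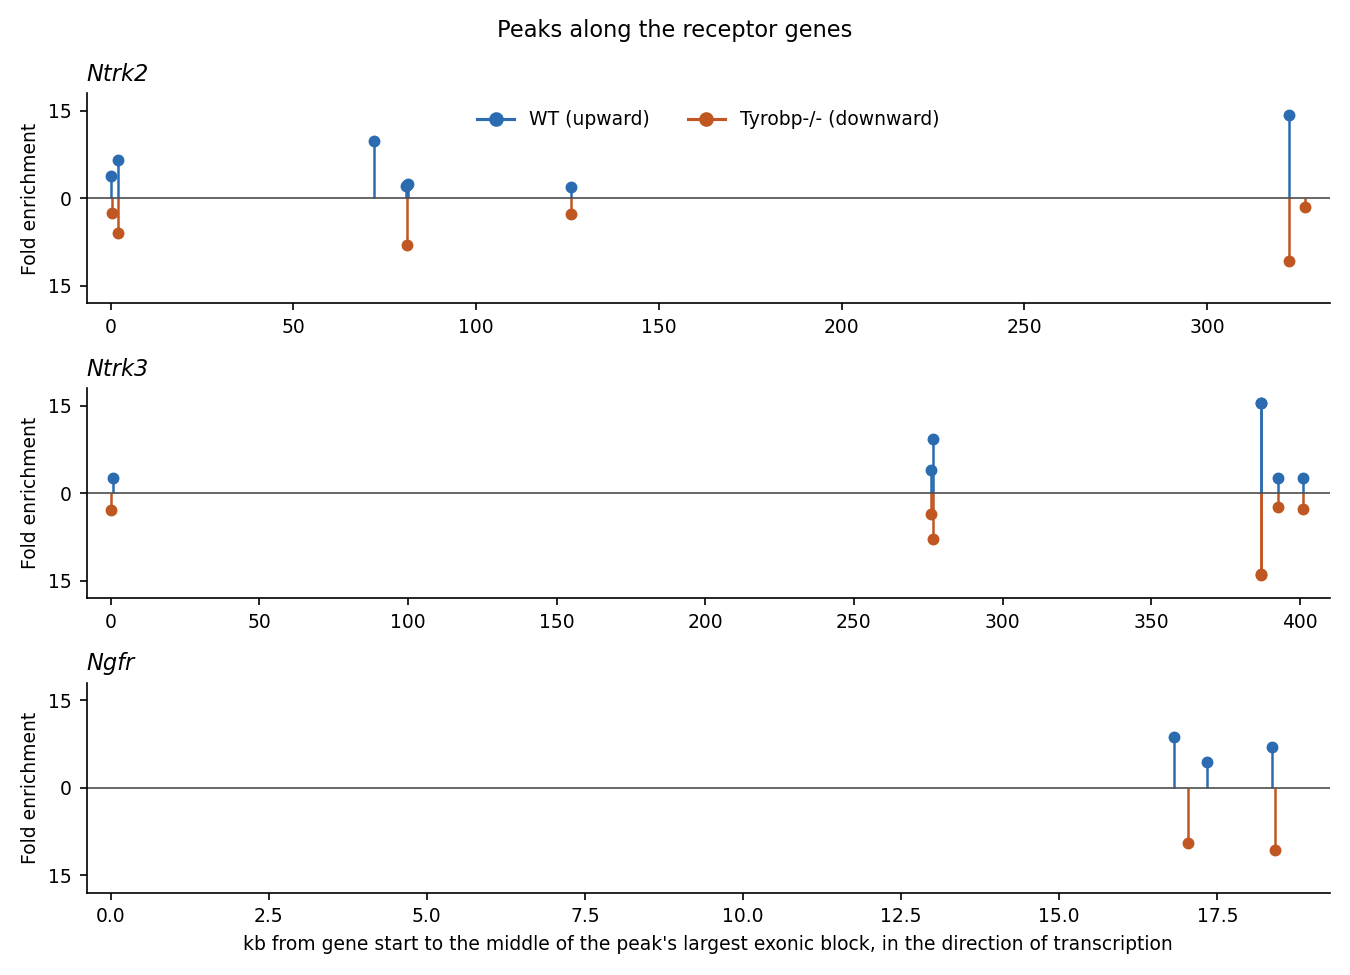
Fold enrichment (IP over input) of each peak of *Ntrk2*, *Ntrk3* and *Ngfr* against distance from the gene start in kb, at the middle of the peak's largest exonic block, with WT drawn upward in blue and *Tyrobp*-/- downward in orange. The tall peaks near the end of *Ntrk2* (14.3 and 10.7) and *Ntrk3* (15.5 and 13.9) face each other, and both genes have further peaks well inside the gene.

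Over the 5 genes, 21 peak pairs were matched, each being the other's largest exonic overlap. Of these pairs 8 were higher and 13 lower in *Tyrobp*-/- mice, while among all 24116 matched pairs 53.5% were higher. The median log2 ratio was -0.09 for the member pairs and 0.05 for all pairs, of which the 5th and 95th percentiles were -1.12 and 1.18. At least 1.5-fold higher were 4 of the 21, beside 16% of all pairs, and at least 1.5-fold lower were 2, beside 13.3%. The pairs below the 5th or above the 95th percentile were 4 of *Bdnf* and 1 of *Ntrk2*. Both pairs that were at least 1.5-fold lower and 2 of the higher ones were *Bdnf* exons, and the others were the inner 3′ UTR of *Ntrk2* and a 3′ UTR peak of *Ngfr*.

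Of the 27 WT peaks 3 had no overlapping *Tyrobp*-/- peak, beside 23.3% of all WT peaks, and of the 24 *Tyrobp*-/- peaks 3 had no WT peak, beside 25.4%. The WT peaks were those in the *Ntf3* and *Ntrk3* 5′ UTRs and the *Ntrk2* peak at 72 kb. The *Tyrobp*-/- peaks were 1 each of *Ntrk2*, *Ntrk3* and *Bdnf*, and that of *Bdnf* stands among the reverse-strand genes and overlaps a forward-listed WT peak. These 6 peaks became 23 when both peaks of a pair had to share at least 50% of their exonic bases.

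**Figure D3:**
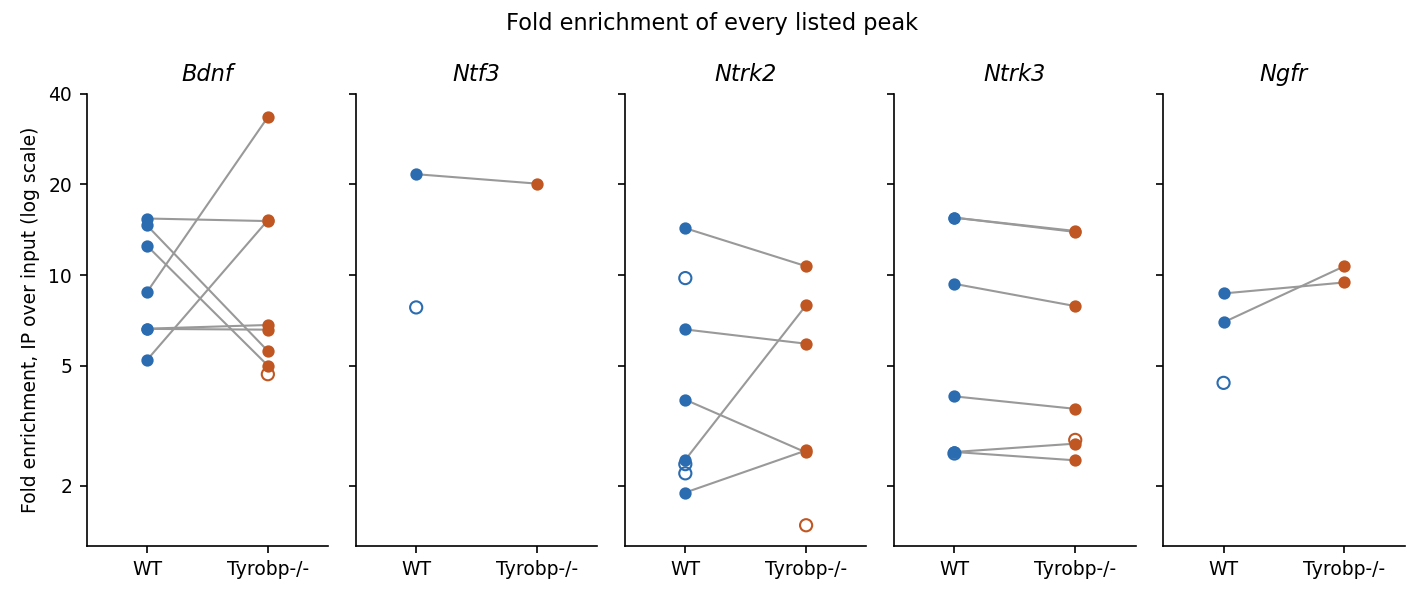
Fold enrichment (IP over input, log scale) of every peak of the 5 genes in WT (blue) and *Tyrobp*-/- mice (orange), 1 pooled value per peak and so without error bars. Lines join matched peaks, and open circles are peaks outside a matched pair. The lines cross in *Bdnf*, *Ntrk2* and *Ngfr* and run nearly level in *Ntf3* and *Ntrk3*.

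The ratios were also set against the share of bases that the peaks of a pair had in common. Where the peaks of a pair shared under 50% of their joint bases, 3 of 7 member pairs were past 1.5-fold either way, and 48% of all such pairs. With 50% or more shared, 3 of 14 member pairs were past 1.5-fold, beside 24.3% of all. The share of a ratio that comes from the bounds of its peaks was not tested.

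**Figure D4:**
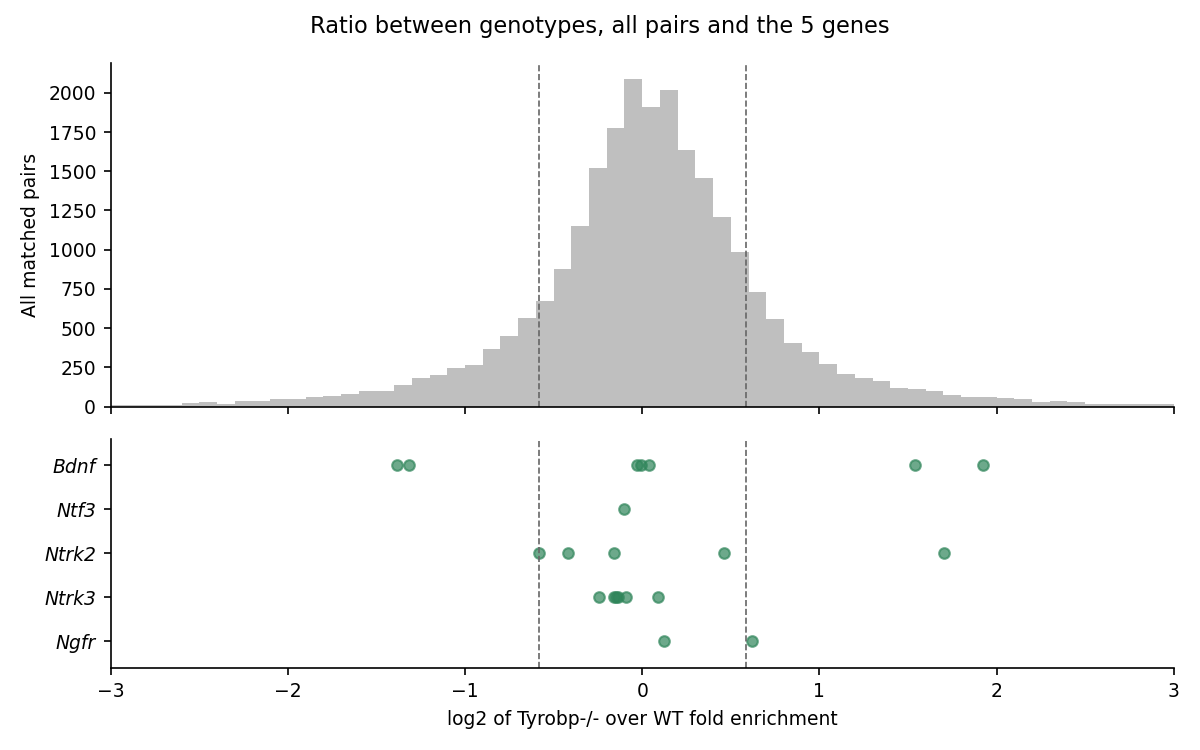
Number of all matched peak pairs by log2 ratio of *Tyrobp*-/- over WT fold enrichment (upper), and the ratio of each member pair by gene (lower). Dashed lines mark 1.5-fold. All 6 *Ntrk3* pairs sit between the lines, while *Bdnf* pairs lie at -1.38 and -1.32 and at 1.54 and 1.93.

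Around the 5 genes, a list of 55 genes of neurotrophin signalling was read the same way. Of these 50 had a peak in both lists, beside 79.9% of all genes with a peak in either list. *Sorcs1* and *Map2k1* were among the genes with a peak in *Tyrobp*-/- mice only, and *Sorcs2* and *Arhgdia* had none. At the strongest matched WT peak of each gene, 49 genes had a ratio, 24 of them higher and 25 lower in *Tyrobp*-/- mice, with a median log2 ratio of -0.01. Over all genes with a pair, 49.8% were higher and 49.8% lower. At least 1.5-fold higher were 5 of the 49, beside 14% of all genes with a pair, and at least 1.5-fold lower were 8, beside 16.2%.

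The sortilin family, which binds proneurotrophins, was weakly enriched. *Sort1* had 2.16 in WT and 2.35 in *Tyrobp*-/- mice, *Sorcs3* had 3.49 and 3.65, and *Sorcs1* had 2.13 in *Tyrobp*-/- mice only.

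Of 7 genes for proteases linked to proneurotrophin processing, 6 had a matched pair. Among these 6, 4 were lower, beside 49.8% of all genes with a pair. Of the 4, 3 were past 1.5-fold, beside 16.2%. These 3 were *Pcsk7*, *Pcsk2* and *Pcsk5*, which are proprotein convertases. *Pcsk7* had 6.84 in WT and 1.86 in *Tyrobp*-/- mice (log2 ratio -1.88), with a log10 FDR of only -1.87 in the latter. *Pcsk2* had 14.3 and 5.53 (log2 ratio -1.37). *Pcsk5* had 9.77 and 4.76 (log2 ratio -1.04), with log10 FDRs of only -1.55 and -1.87. Outside these pairs the *Tyrobp*-/- list held higher peaks, of 9.53 for *Pcsk5*, close to the WT value, and of 3.24 for *Pcsk7*. *Furin*, a main processing enzyme of the secretory pathway, was within 1.5-fold, with 17.4 and 12.1 (log2 ratio -0.52). The higher genes were *Pcsk1* (log2 ratio 0.44) and *Plat*, tissue plasminogen activator (log2 ratio 0.50). Of the p75 partners 6 of 7 were lower and 1 past 1.5-fold, beside the same shares of 49.8% and 16.2%.

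Of the Trk adaptors and effectors 17 of 27 were higher and 10 lower, beside 49.8% each way over all genes with a pair. Past 1.5-fold were 5 and 3, beside 14% and 16.2%. *Grb2*, the adaptor that links Trk receptors to Ras, had 9.34 in WT and 40.4 in *Tyrobp*-/- mice (log2 ratio 2.11). *Gab1*, a docking protein, had 9.38 and 22.9 (log2 ratio 1.29). *Frs3*, another Trk adaptor, was lower at its matched pair, with 12.8 and 4.48 (log2 ratio -1.51). The highest *Frs3* peak of the *Tyrobp*-/- list lay outside this pair and had 11.6, close to the WT value. The annotation puts the *Gab1* and *Pcsk2* peaks in exons of other gene models that overlap these genes, so their values are uncertain.

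**Figure D5:**
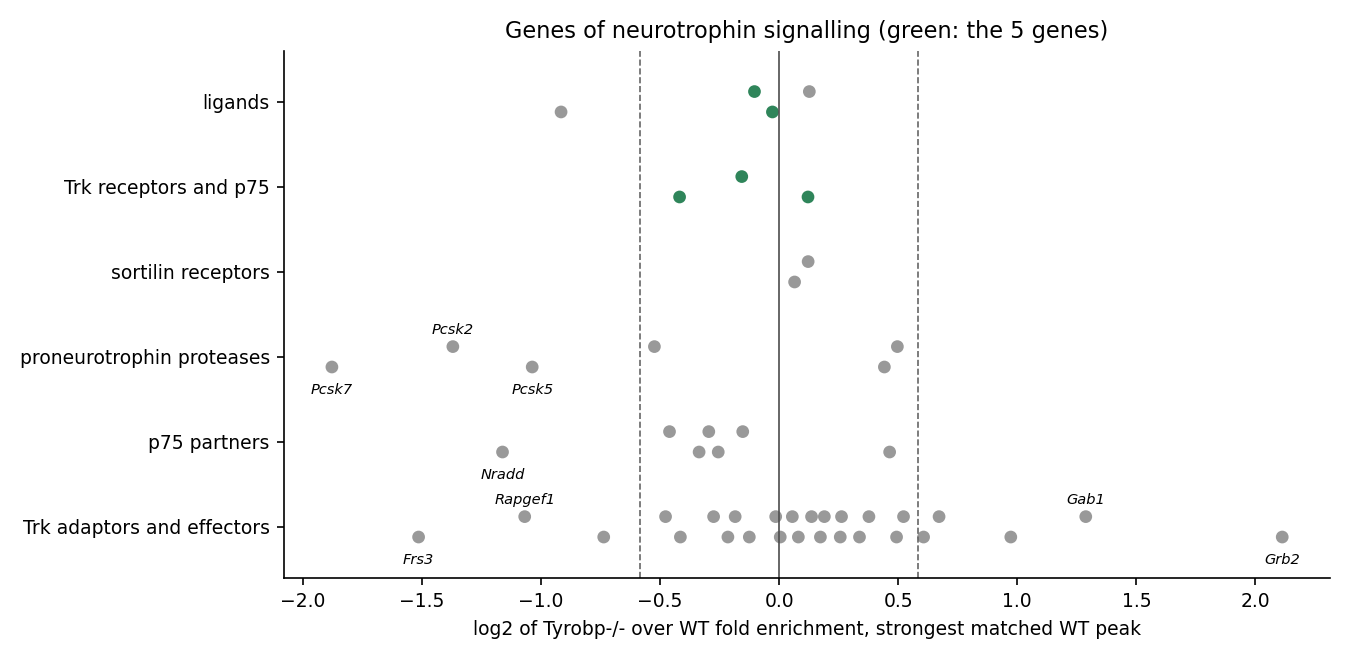
log2 ratio of *Tyrobp*-/- over WT fold enrichment at the strongest matched WT peak of 49 genes of neurotrophin signalling, by role, with the 5 member genes in green and dashed lines at 1.5-fold. The member genes sit between -0.42 and 0.12, and the widest ratios are those of *Pcsk7* (-1.88) and *Grb2* (2.11).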

How the data were processed

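The libraries were trimmed with fastp and mapped with HISAT2, per the labels, and the study's methods name exomePeak for peak calling on the 3 replicates together and ChIPseeker for annotation. The study's methods describe libraries with a dUTP-marked second strand and a UDG enzyme step before PCR. Versions and the use of strand in mapping and peak calling are not given in the sources used here. The authors deposited the count of valid reads and the percent of Q30 bases per library, and for each peak its position, its fold enrichment (the ratio of IP to input reads as exomePeak scales it) and the log10 of the p-value and FDR, read here as a score. A further table of the authors holds their own comparison (log2 fold change, p-value, log10 FDR), of which only positions and gene names were used.

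Peaks with the same gene name in the same stretch of the list were paired as each other's largest overlap of exonic blocks (at least 1 base), and log2 ratios were computed and described without a test. A stretch was set by the strands of the 10 rows on each side, a refinement added after the lists were seen. The matching was tested on a copy of the WT list in which some peaks were dropped, peaks were shifted slightly and some were raised in height. No peak was merged, split or resized there, so the matching of such peaks was not tested. Every peak of the 5 genes is named or counted. *Ntf5* and the sortilin family were named whatever their values, and of the other pathway genes those among the 3 highest and 3 lowest ratios; some genes that this rule names are counted in the list but not reported here. *Furin*, *Pcsk1*, *Pcsk5*, *Plat*, *Map2k1*, *Arhgdia* and *Gm45346* were added after their values were seen. The 5 genes and the lists were chosen with earlier results of these data known. Peak positions are those of GRCm38, and all 5 genes overlapped their RefSeq gene. Promoter sequences were at hand for 4 of the 5 genes (11 windows of 250 bases before and 50 after a start site). Python 3.11.15, numpy, pandas and matplotlib were used.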

Additional observations from a re-analysis of the deposited data

How the results depend on the processing

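No paired analysis was possible because each peak has 1 value over the pooled replicates, and for the same reason no replicate could be left out. Of 38 alternatives, 35 left a count within 1.5 times, or moved a log2 ratio by less than the 0.83 SD of the member pairs. The others came from asking that both peaks share at least 50% of their exonic bases, which left 14 matched pairs, 3 of them higher in *Tyrobp*-/- mice (against 8), 3 past 1.5-fold (against 6) and 23 peaks without a partner (against 6); fewer pairs pass by construction. At an FDR below 1e-05, 21 WT and 24 *Tyrobp*-/- peaks were left, and with a minimum fold enrichment of 4, 18 and 17. Without the second listings, an alternative added after the data were seen, 19 pairs were left, 6 past 1.5-fold. Over all peaks of a gene, the mean log2 difference was 0.63 for *Ntf3*, 0.65 for *Ngfr* and 0.00 for *Ntrk2*, where their strongest matched pairs gave -0.10, 0.12 and -0.42. For *Ntf3* the sign changed. For *Ntf3* and *Ngfr* the mean difference was past 1.5-fold, where the strongest pair was not. Both still counted as unmoved, because the 0.83 SD is itself wider than 1.5-fold. A log2 ratio could thus hardly fail that limit. The WT mean of *Ntf3* includes the 5′ UTR peak of 7.81 (log10 FDR -0.79), which had no *Tyrobp*-/- counterpart.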
